A study of Mus musculus with 6 samples.

Results

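The 10 genes described here are transcription factors and stress effectors of the ATF4 pathway: the factor genes Atf4, Ddit3, Atf3, Atf5 and Cebpb, and the effector genes Trib3, Chac1, Nupr1, Ppp1r15a and Sesn2. They were taken by symbol from a table of 19813 gene names in 19832 rows and fill 11 of those rows, because Ddit3 is listed under 2 Ensembl IDs. They were measured in EO771, a mouse mammary tumour cell line, in 3 samples given recombinant lipocalin-2 (LCN2) protein and 3 untreated control samples, here LCN2 1 to 3 and Control 1 to 3. LCN2 is secreted by many cells and sequesters siderophores, small iron carriers, and the comparison asks how the transcriptome of the tumour cells differs when it is added. The labels give no dose, exposure time, batch or day, and leave unsaid whether each replicate was its own culture, so the error behind a p-value here could be technical only. The genes were chosen with the difference between LCN2 and control already known, so their values in that comparison are a description and not a test.

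ATF4 is the central transcription factor of the integrated stress response. Kinases that sense lack of amino acids, unfolded protein, viral RNA or heme deficiency phosphorylate the translation factor eIF2, which lowers general protein synthesis while Atf4 mRNA, with its upstream open reading frames, is translated more. ATF4 then binds DNA as a dimer with other basic leucine zipper (bZIP) proteins, often C/EBP family members, and induces genes for amino acid supply, further transcription factors and feedback inhibitors. Because much of this control acts on translation, the level of Atf4 mRNA is not the level of ATF4 protein, and no protein was measured here.

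Values were read as FPKM, which divides fragments by transcript length and by the library's total, a unit inferred from the deposited values. Each library's values summed to between 391569 and 410808, and the number of reads behind them is unknown. Across the 10309 genes that averaged 1 FPKM or more, log2 values correlated at 0.992 to 0.995 between libraries of the same group and at 0.979 to 0.992 between groups. LCN2 2 was the LCN2 library closest to all 3 controls (0.988, 0.992 and 0.991 with Control 1, 2 and 3). Epithelial keratins were abundant, with 713 to 769 FPKM of Krt18 in LCN2 libraries and 671 to 728 FPKM in control libraries. Krt8 had 235 to 257 FPKM in LCN2 and 300 to 313 FPKM in control libraries, and Krt7 105 to 108 and 111 to 118 FPKM. Epcam was lower, at 12.4 to 13.9 FPKM in LCN2 and 15.2 to 17.1 FPKM in control libraries, and Cdh1 was under 1 FPKM in every library. The mesenchymal markers Vim and Fn1 were abundant too. Vim had 227 to 245 FPKM in LCN2 and 304 to 311 FPKM in control libraries, and Fn1 356 to 399 and 307 to 363 FPKM. The mesenchymal marker Cdh2 was much lower, at 4.995 to 5.67 FPKM in LCN2 and 4.84 to 5.53 FPKM in control libraries. The 4 mast cell markers in the table were listed at 0 in every library, and 3 leukocyte markers summed to 9.06 to 9.65 FPKM in LCN2 and 7.77 to 9.996 FPKM in control libraries, nearly all of it Cd68. Of 4 fibroblast markers, Pdgfrb was listed at 0 and the sum, nearly all of it Dcn, was 581 to 612 FPKM in LCN2 and 489 to 545 FPKM in control libraries. Whether other cells had a part in the results was not tested. The Lcn2 gene itself was under 1 FPKM in every library, with 0.237 to 0.302 FPKM in LCN2 and 0.0513 to 0.109 FPKM in control libraries. At these low values it was not among the genes tested.

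ATF4 and C/EBP proteins recognise a composite site, the C/EBP-ATF response element, whose core was searched as TGATGNAA on both strands (TTNCATCA on the other strand) in the RefSeq promoter windows of GRCm38.p6, which run from 250 bases before to 50 bases after each annotated start. All 10 genes had at least 1 window, and the RefSeq starts used for Nupr1, Atf3, Sesn2, Ddit3, Chac1 and 1 of the 2 windows of Atf5 lie inside the annotated spans given here. The core was found in 4 of them, against 4.51% of 27025 genes and 3.97% of 32851 windows of the same length. It lay before the RefSeq start in Nupr1 and Atf3, both with its leftmost base at position -110, and in Chac1 at position -193. In Trib3 it lay after the RefSeq start at position 15, where the matched bases were TTACATCA. This RefSeq start of Trib3 and the match both lie before the annotated start of the gene, outside the span given here. The cyclic AMP response element TGACGTCA, a site of ATF and CREB family factors, was found in Ppp1r15a alone of the 10 genes, at position -12, against 2.03% of genes. A CCAAT box (CCAAT, or ATTGG on the other strand) was found in 6 of the 10 and in 41.1% of genes. None of these motifs overlapped another in the 10 genes. A match is a run of letters and not a shown site, and no match says only that these letters are not in this window.
The 250 bases before the start are shown for the 3 genes with the composite core there and for Ppp1r15a, 5′ to 3′ in the direction of the gene, with the core or the cyclic AMP response element in capitals.
Nupr1 promoter, chr7:126625471-126625720, minus strand: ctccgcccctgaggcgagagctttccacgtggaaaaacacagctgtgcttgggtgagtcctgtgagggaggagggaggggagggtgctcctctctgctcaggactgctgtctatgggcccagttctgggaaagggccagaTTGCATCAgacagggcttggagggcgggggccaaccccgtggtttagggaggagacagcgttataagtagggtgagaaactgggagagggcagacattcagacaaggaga
Atf3 promoter, chr1:191183334-191183583, minus strand: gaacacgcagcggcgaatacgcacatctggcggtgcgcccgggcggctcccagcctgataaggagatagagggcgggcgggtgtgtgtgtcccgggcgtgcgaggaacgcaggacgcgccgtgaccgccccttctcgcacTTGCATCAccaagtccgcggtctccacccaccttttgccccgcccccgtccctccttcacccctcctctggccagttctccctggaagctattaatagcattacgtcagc
Chac1 promoter, chr2:119350992-119351241, plus strand: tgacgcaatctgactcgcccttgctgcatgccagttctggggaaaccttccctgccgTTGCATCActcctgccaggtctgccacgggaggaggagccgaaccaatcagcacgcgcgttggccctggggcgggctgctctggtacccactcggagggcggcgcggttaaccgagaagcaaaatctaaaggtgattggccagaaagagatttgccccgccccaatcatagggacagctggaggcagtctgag
Ppp1r15a promoter, chr7:45526269-45526518, minus strand: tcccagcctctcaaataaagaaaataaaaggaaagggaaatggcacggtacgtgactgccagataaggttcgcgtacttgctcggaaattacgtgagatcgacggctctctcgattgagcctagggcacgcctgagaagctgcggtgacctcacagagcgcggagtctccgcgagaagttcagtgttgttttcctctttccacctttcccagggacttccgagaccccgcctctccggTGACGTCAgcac

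Among the factor genes, Atf4, Atf3, Ddit3 and Cebpb were higher with LCN2 in the group means and Atf5 was lower. Atf4 (ENSMUSG00000042406, chromosome 15, 80255184 to 80257541, GRCm38) had 182, 155 and 177 FPKM in LCN2 1, 2 and 3, against 101, 148 and 124 FPKM in Control 1, 2 and 3. Every LCN2 library was above every control library, with LCN2 2 and Control 2 the nearest to each other. The means were 171 ± 14.1 FPKM with LCN2 and 124 ± 23.2 FPKM in control cells (SD, n = 3 each, as throughout). In bulk RNA, fewer cells expressing a gene and less of its RNA per cell cannot be told apart.

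Ddit3 (ENSMUSG00000025408, chromosome 10, 127290774 to 127296288) encodes CHOP, a bZIP partner of ATF4 linked to cell death under lasting stress. It had 92.8, 59.5 and 86.2 FPKM in LCN2 1 to 3, against 28.1, 63.1 and 45.5 FPKM in Control 1 to 3. The groups overlapped as deposited, since Control 2 was above LCN2 2. After scaling between libraries LCN2 2 was above Control 2 by 0.02 on the log2(FPKM + 1) scale. The other Ddit3 row (ENSMUSG00000116429), a transcript of 105 bases within the same locus, was listed at 0 in every library. Exons of Ddit3 overlap those of the opposite-strand methionyl-tRNA synthetase gene, named Mars1 in the table. Strand use in counting is not given in the sources used here, so reads from the shared stretch cannot be told apart. Mars1 had 63.6, 55.6 and 67.3 FPKM in LCN2 1 to 3 and 49.1, 59.2 and 51.6 FPKM in Control 1 to 3.

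Atf3 (ENSMUSG00000026628, chromosome 1, 191170296 to 191218039), a stress-induced bZIP factor that often represses its targets, had 55.6, 35.2 and 48.5 FPKM in LCN2 1 to 3, against 10.01, 34.8 and 20.8 FPKM in Control 1 to 3. Control 2 was within 1 FPKM of LCN2 2, and Control 1 was far below both other controls. Cebpb (ENSMUSG00000056501, chromosome 2, 167688915 to 167690418), which encodes a C/EBP factor that dimerises with ATF4 and CHOP, had 68.0, 50.7 and 68.9 FPKM in LCN2 1 to 3, against 28.0, 43.5 and 33.5 FPKM in Control 1 to 3. Its groups did not overlap. Atf5 (ENSMUSG00000038539, chromosome 7, 44812256 to 44816658), a factor under similar translational control that is tied to mitochondrial stress in mammals, had 18.8, 20.6 and 20.5 FPKM in LCN2 1 to 3, against 23.8, 21.7 and 22.1 FPKM in Control 1 to 3. It was the only member that was lower in the mean, by 0.11 on the log2 scale, and its groups overlapped after scaling although they did not as deposited. Exons of Cebpb overlap those of Tmem189, which had 48.9, 49.6 and 49.5 FPKM in LCN2 1 to 3 and 62.4, 67.7 and 61.6 FPKM in Control 1 to 3. Exons of Atf5 overlap those of Nup62 and Il4i1. Nup62 had 50.1, 47.8 and 47.6 FPKM in LCN2 1 to 3 and 43.4, 49.7 and 44.2 FPKM in Control 1 to 3, above Atf5 in every library. Il4i1 was under 1 FPKM in every library.

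**Figure D1:**
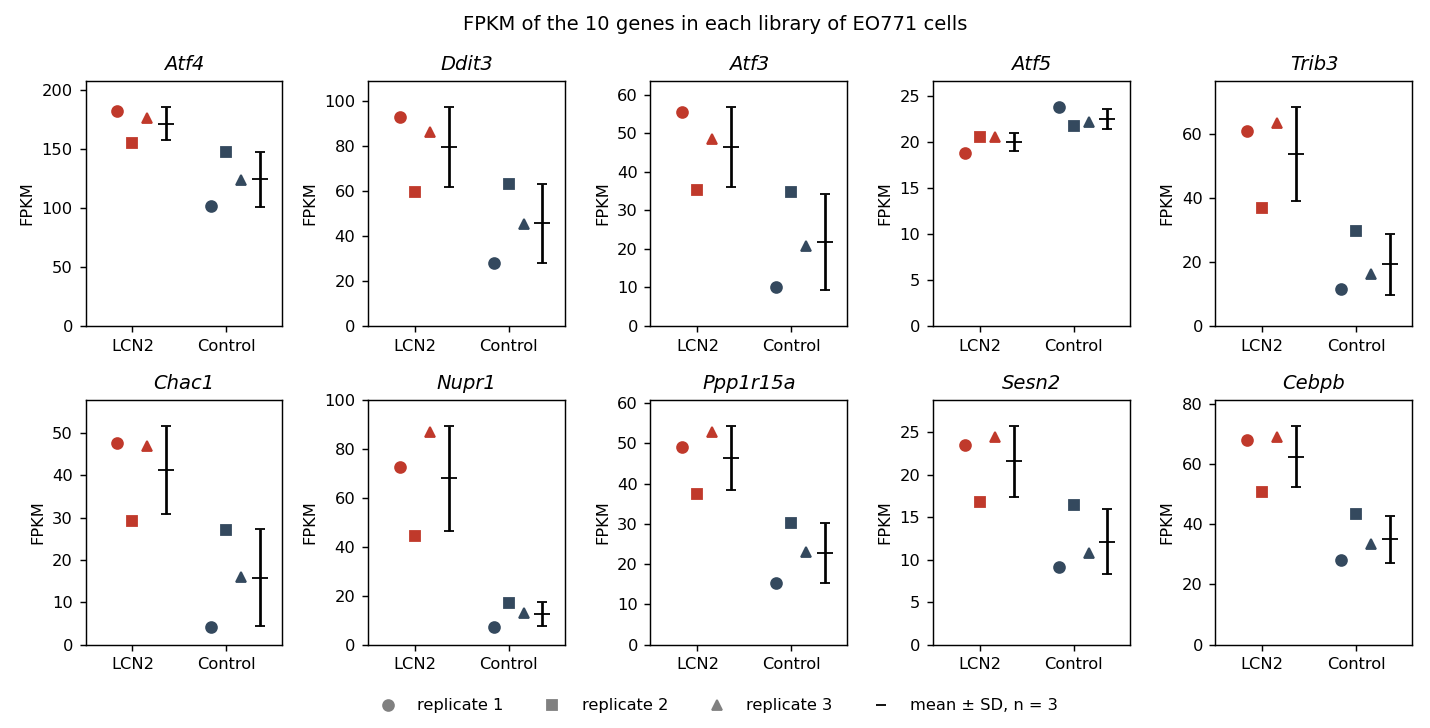
FPKM (y axis, from 0) of each of the 10 genes in LCN2 and control libraries (x axis), 1 point per library with its replicate number as the symbol, and the mean ± SD (n = 3) as a bar. In 9 genes LCN2 2 is the lowest LCN2 library and Control 2 the highest control, and Atf5 is nearly level at 18.8 to 23.8 FPKM.

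All 5 effector genes were higher with LCN2 in the group means, and Nupr1 was the member in which the groups lay farthest apart. Nupr1 (ENSMUSG00000030717, chromosome 7, 126623249 to 126630861), a small stress-induced nuclear protein, had 72.6, 44.5 and 86.8 FPKM in LCN2 1 to 3, against 7.20, 16.9 and 12.8 FPKM in Control 1 to 3. The lowest LCN2 library was above the highest control by 1.44 on the log2 scale, where the same gap was between 0.02 and 0.405 in the 8 other members whose groups did not overlap after scaling. Trib3 (ENSMUSG00000032715, chromosome 2, 152337422 to 152344032), a pseudokinase that binds ATF4 and restrains its activity, had 60.9, 37.0 and 63.3 FPKM in LCN2 1 to 3, against 11.5, 29.8 and 16.3 FPKM in Control 1 to 3. LCN2 2 was the only LCN2 library near the controls.

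Chac1 (ENSMUSG00000027313, chromosome 2, 119351229 to 119354381), an enzyme that degrades glutathione, had 47.6, 29.1 and 46.9 FPKM in LCN2 1 to 3, against 4.22, 27.1 and 16.04 FPKM in Control 1 to 3. Control 2 was close to LCN2 2, and the controls differed among themselves by 6.43-fold. Ppp1r15a (ENSMUSG00000040435, chromosome 7, 45522916 to 45526268) encodes GADD34, which brings a phosphatase to eIF2 and so closes the feedback loop. It had 49.1, 37.4 and 52.7 FPKM in LCN2 1 to 3, against 15.2, 30.1 and 22.9 FPKM in Control 1 to 3, with no overlap. Its exons overlap those of Tulp2, which was under 1 FPKM in every library. Sesn2 (ENSMUSG00000028893, chromosome 4, 132492032 to 132510501), a sestrin that senses leucine and restrains mTOR signalling, had 23.5, 16.7 and 24.4 FPKM in LCN2 1 to 3, against 9.16, 16.4 and 10.8 FPKM in Control 1 to 3. Control 2 and LCN2 2 again lay side by side.

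The order of the genes by level was partly different in the 2 groups. With LCN2 the means ran from Atf4 (171 ± 14.1 FPKM) through Ddit3 (79.5 ± 17.6), Nupr1 (68.0 ± 21.5), Cebpb (62.5 ± 10.2), Trib3 (53.7 ± 14.6), Atf3 (46.4 ± 10.3), Ppp1r15a (46.4 ± 7.97) and Chac1 (41.2 ± 10.5) to Sesn2 (21.6 ± 4.20) and Atf5 (20.0 ± 0.987). In control cells they ran from Atf4 (124 ± 23.2 FPKM) through Ddit3 (45.6 ± 17.5), Cebpb (35.0 ± 7.86), Ppp1r15a (22.7 ± 7.47), Atf5 (22.5 ± 1.09), Atf3 (21.9 ± 12.5), Trib3 (19.2 ± 9.46) and Chac1 (15.8 ± 11.5) to Nupr1 (12.3 ± 4.88) and Sesn2 (12.1 ± 3.80). Neighbours in these orders were closer than the larger of their SDs, except for Atf4 and Ddit3 in both groups, Chac1 and Sesn2 with LCN2, and Cebpb and Ppp1r15a in control cells. Nupr1 stood below all but Sesn2 in control cells and was the highest of the effectors with LCN2.

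Differences were estimated with limma across all 10309 genes on log2(FPKM + 1) after scaling between libraries, as LCN2 minus control. Nupr1 had 2.45 (SE 0.31), Chac1 1.66 (SE 0.54), Trib3 1.56 (SE 0.32), Atf3 1.25 (SE 0.37) and Ppp1r15a 1.09 (SE 0.22). Ddit3 had 0.90 (SE 0.27), Cebpb 0.89 (SE 0.16), Sesn2 0.86 (SE 0.20), Atf4 0.53 (SE 0.12) and Atf5 -0.11 (SE 0.07). The median was 1.00 over the 10 members and -0.0013 over all genes tested. A called gene is one with a Benjamini-Hochberg adjusted p under 0.05 over all genes tested. All 10 members passed the filter on low values, and 6 of them were called higher (Nupr1, Cebpb, Ppp1r15a, Trib3, Atf4 and Sesn2), where 11.6% of all genes tested were called higher. None was called lower, where 9.87% of all genes tested were. At an unadjusted p under 0.05, none of the 10 was lower, where 1972 of the 10309 genes were lower and 2065 higher. After scaling, all LCN2 libraries were above all control libraries in 9 members and in 22.6% of all genes tested. Since the members were chosen on this contrast, nothing is read from these counts.

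**Figure D2:**
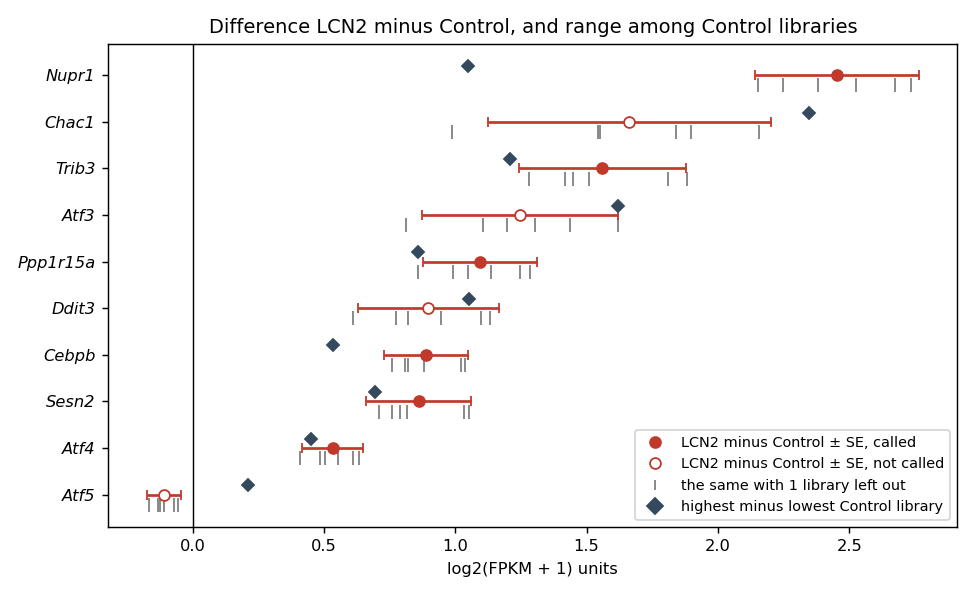
Difference of LCN2 minus control for each gene (circles, ± SE, filled where called), the same difference with each library left out in turn (grey ticks), and the range from the lowest to the highest control library (diamonds), all in log2(FPKM + 1) units on the x axis with the genes down the y axis. The diamonds of Chac1, Atf3, Ddit3 and Atf5 lie beyond the size of the difference, while that of Nupr1 (1.05) is well below its difference of 2.45.

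The number of called members changed with the library left out. Fits without 1 library also have fewer libraries, and why calls were lost was not tested. Without Control 3 the median difference of the members was 1.04, against 0.9965 with all libraries. Leaving out Control 3, LCN2 1 or LCN2 3 left 1 called member each time, Nupr1, beside 2.69%, 1.69% and 2.85% of all genes tested called higher in those same fits. Leaving out Control 1 left 4 (Nupr1, Cebpb, Ppp1r15a and Atf4), beside 3.94% of all genes. Leaving out Control 2 gave 9, beside 9.47% of all genes, and leaving out LCN2 2 gave 8, beside 15.8%. The sign of each member's difference was the same in all of these fits. Leaving out Control 1 gave 0.99 for Chac1, in place of 1.66, and 0.81 for Atf3, in place of 1.25. The small difference of Atf5 was -0.06 when Control 1 was left out, -0.16 when Control 2 was and -0.07 when LCN2 1 was. With values as deposited, without scaling, 8 members were called higher, Atf3 and Ddit3 in addition, against 6.72% of all genes tested.

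The spread among the control libraries was wide in every member but Atf5. On the log2 scale, the control SD of these members was above that of 95.2% to 99.9% of all genes tested. Their SD among LCN2 libraries was above that of 78.1% to 99.5%. For Atf5 the shares were 71.0% among control and 42.7% among LCN2 libraries. The highest control was 6.43 times the lowest for Chac1, 3.48 times for Atf3, 2.58 times for Trib3, 2.35 times for Nupr1 and 2.24 times for Ddit3, and 1.10 times for Atf5. On the log2 scale the control range was at least 1 in these 5 genes, where 0.631% of all genes tested had such a range. It exceeded the size of the difference between the groups in 4 members (Ddit3, Atf3, Chac1 and Atf5), as it did in 52.6% of all genes tested. The SD among controls was larger than the SD among LCN2 libraries in 10 of 10 members, with medians of 0.32 among LCN2 and 0.48 among control libraries on the log2 scale. Over all genes tested the medians were 0.078 among LCN2 and 0.070 among control libraries, and the control SD was the larger in 4605 of 10309 genes.

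The libraries also fell in the same order in 9 of the 10 genes. Control 1 was the lowest control, Control 3 the middle one and Control 2 the highest in every member but Atf5, and LCN2 2 was the lowest LCN2 library in the same 9. Both orders together held in 12.5% of all genes tested, and both in reverse in 11.9%. Over all genes tested, Control 2 was also the control closest to LCN2 1, 2 and 3 (r of 0.9867, 0.9916 and 0.986). Control 1 was the farthest from them (0.9787, 0.9881 and 0.9785). The members were chosen on the contrast between the groups, so nothing is read from how many of them show this order. With each group mean removed, Pearson correlations over the 6 libraries were between 0.85 and 0.998 for the 36 pairs of the 9 genes (median 0.96), highest for Atf4 with Ddit3. They were between -0.89 and -0.63 for the 9 pairs that include Atf5. These describe 6 libraries, with 1 scaling factor per library shared by all genes. Control 2 had the largest factor (1.06) and the largest column sum, while the factors of LCN2 2 (0.989) and Control 1 (1.00) lay within the range of the others. Every LCN2 factor (0.970 to 0.989) was below every control factor (1.00 to 1.06), so scaling raised LCN2 values relative to control values. The part of depth or RNA quality in the shared order was not tested.

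**Figure D3:**
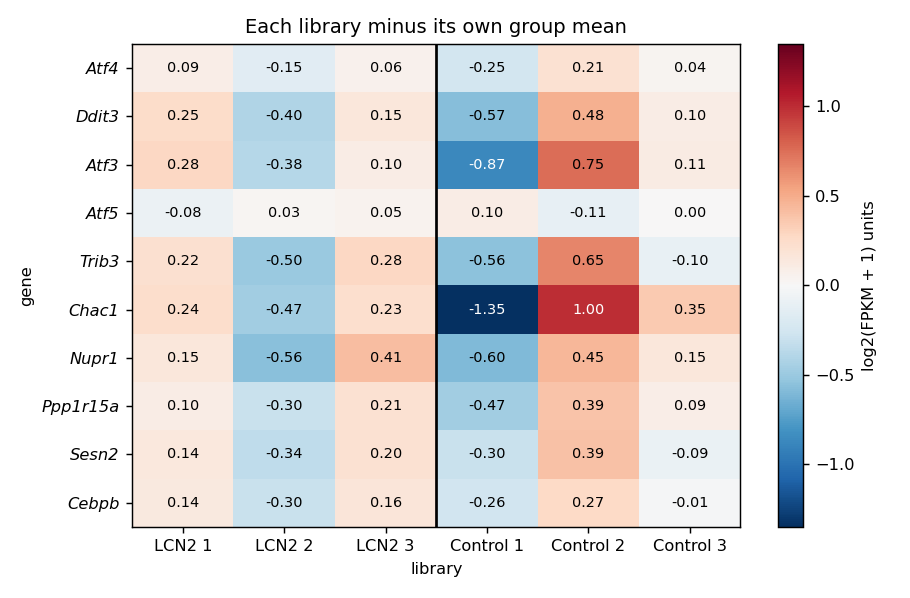
Each library minus the mean of its own group for the 10 genes, in log2(FPKM + 1) units (colour and printed value), with LCN2 libraries left of the line and control libraries right of it. Among the control libraries, Control 1 is lowest in 9 genes, down to -1.35 for Chac1, and Control 2 is highest in the same 9, up to 1.00 for Chac1, and Atf5 runs the other way with small values.

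The nearest libraries of the 2 groups, LCN2 2 and Control 2, were nearly level in some members and not in others. As deposited, LCN2 2 over Control 2 was 0.944 for Ddit3, 0.948 for Atf5, 1.01 for Atf3, 1.02 for Sesn2, 1.05 for Atf4 and 1.07 for Chac1. It was 1.17 for Cebpb, 1.24 for Trib3 and 1.24 for Ppp1r15a, and 2.63 for Nupr1. Nupr1 was thus the 1 member in which LCN2 2 stood well above every control. That contrast between Nupr1 and the other members was not tested.

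Genes whose pattern was most like that of the members were ranked by Pearson r over the 6 libraries with the mean standardized profile of the 10 members, among 10022 other tested genes. The 6 nearest were Tox4, Fosl2, Arfgef1, Dusp5, 9930111J21Rik2 and Notch2 (r from 0.997 to 0.998). Fosl2, Dusp5 and 9930111J21Rik2 were called higher. Tox4 (0.10, SE 0.05), Arfgef1 (0.15, SE 0.05) and Notch2 (0.17, SE 0.06) differed little between groups and were not called. Fosl2, a bZIP gene of the FOS family, had 25.6, 22.04 and 25.2 FPKM in LCN2 1 to 3 and 15.4, 21.4 and 18.1 FPKM in Control 1 to 3. Dusp5, a phosphatase that acts on ERK kinases, had 28.1, 22.8 and 27.6 FPKM in LCN2 1 to 3 and 14.5, 21.2 and 17.6 FPKM in Control 1 to 3. With group means removed from both, the nearest were Crim1, Tox4, Rnd1, Socs2, Esam and Rasgrp3 (r from 0.997 to 1.00). Rasgrp3 shared the order of the libraries but hardly differed between groups, with 2.65 ± 0.264 FPKM with LCN2 and 2.75 ± 0.532 FPKM in control cells (0.01 on the log2 scale, SE 0.11). With 6 libraries, high correlations are reached by many genes, and none of these is read as sharing control with the members.

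Of 102 other tested genes, in 8 lists of the pathway and of genes related to it, 47 rose and 6 fell with LCN2. Their median difference was 0.24 on the log2 scale. Over all genes tested, 11.6% were called higher and 9.87% lower, with a median of -0.0013. The lists were chosen with earlier results of these data known, so their counts are a description and not a test. Cebpg and Ppp1r15b each stand in 2 lists and count once in these sums. The called genes named from the lists had adjusted p from limma between 0.0055 and 0.036. Enzymes of amino acid and folate metabolism rose in 10 of 13 genes, and 0 fell (also 0 at an unadjusted p under 0.05), with a median of 0.52. The cysteine-forming enzyme Cth rose to 10.5 ± 2.37 FPKM with LCN2, against 3.81 ± 0.471 FPKM in control cells, and Aldh1l2, a mitochondrial folate enzyme, to 2.88 ± 0.549 FPKM, against 0.943 ± 0.128 FPKM. Aldh18a1, an enzyme of proline synthesis (0.90, SE 0.14), and Shmt2, which makes glycine from serine in mitochondria (0.52, SE 0.08), rose as well. Amino acid transporters rose in 6 of 9 genes, and 0 fell (also 0 at an unadjusted p under 0.05). The glycine transporter Slc6a9 (1.45, SE 0.24), both chains of the large neutral amino acid carrier, Slc7a5 (0.89, SE 0.15) and Slc3a2 (0.73, SE 0.13), and the cystine carrier Slc7a11 (0.75, SE 0.16) were among them. Cytosolic aminoacyl-tRNA synthetases, which charge tRNAs, rose in 13 of 18 genes and fell in 1. Those with the smallest adjusted p were Wars (0.37, SE 0.06), Lars (0.45, SE 0.07), Eprs (0.32, SE 0.06) and Nars (0.50, SE 0.10).

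Other genes known as targets of ATF4 or CHOP rose in 8 of 14, and 0 fell (also 0 at an unadjusted p under 0.05). Over all genes tested, 11.6% were called higher and 9.87% lower. The autophagy receptor Sqstm1 rose to 290 ± 47.4 FPKM with LCN2, against 162 ± 17.6 FPKM in control cells, and the BH3-only gene Pmaip1 to 100 ± 14.8 FPKM, against 59.3 ± 8.61 FPKM. Ndrg1, a stress-induced gene (0.84, SE 0.13), and Cebpg, a bZIP partner of ATF4 (0.81, SE 0.14), rose too. Among 20 tested bZIP partners and relatives of the 5 factor genes, 9 rose and 2 fell, beside the same 11.6% and 9.87% of all genes tested. The 2 falls are not read as a result about this list. Maf fell to 4.15 ± 0.459 FPKM with LCN2, against 6.76 ± 0.170 FPKM in control cells, while the AP-1 genes Fosl1 (1.16, SE 0.21) and Junb (0.85, SE 0.15) and the endoplasmic reticulum stress sensor Atf6 (0.51, SE 0.09) rose.

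The other 3 lists, upstream of and beside ATF4, gave 2 rises and 3 falls, where 11.6% of all genes tested were called higher and 9.87% lower. Of 10 genes for the eIF2 kinases and for eIF2 and its dephosphorylation, limma called 0. At an unadjusted p under 0.05, 2 of the 10 were higher and 3 lower, beside 2065 higher and 1972 lower of all 10309 genes. The largest differences were 0.31 (SE 0.09) for Ppp1r15b, the constitutive relative of Ppp1r15a, and -0.29 (SE 0.09) for the RNA-activated kinase Eif2ak2. Among 6 tested paralogs of the effectors, 0 rose and 1 fell, with 2 higher and 2 lower at an unadjusted p under 0.05, beside the same 2065 and 1972 of 10309. Trib2, a paralog of Trib3, fell to 1.26 ± 0.311 FPKM with LCN2, against 2.61 ± 0.209 FPKM in control cells. Whether Trib2 and Trib3 differ in response was not tested. The IRE1 and ATF6 branches of the unfolded protein response gave 2 rises and 2 falls among 14 genes, with Hspa5 (0.40, SE 0.09) and Xbp1 (0.27, SE 0.07) higher and Calr (-0.14, SE 0.04) and Pdia6 (-0.13, SE 0.03) lower.

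**Figure D4:**
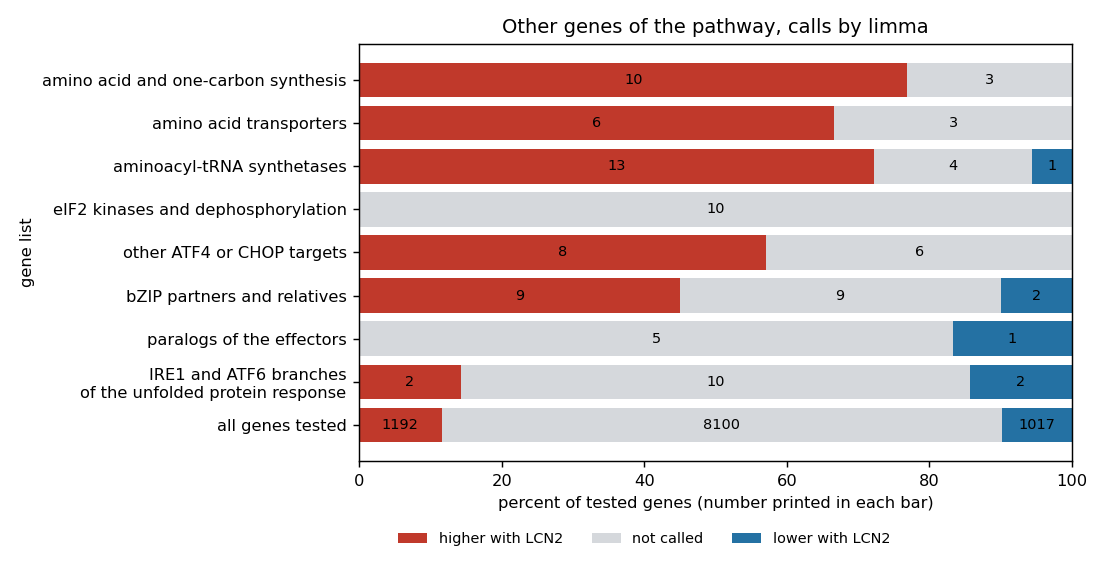
Percent of the tested genes in each pathway list (x axis, with the number of genes printed in the bars) that limma called higher with LCN2, did not call, or called lower, with all 10309 genes tested as the bottom bar. Amino acid enzymes (10 of 13), transporters (6 of 9) and tRNA synthetases (13 of 18) hold most of the rises, and the eIF2 kinase list holds no call.

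These counts changed with the library left out, as the number of called members did. The 47 rises became 21, 51 and 12 when Control 1, 2 and 3 were left out in turn, and 5, 60 and 13 when LCN2 1, 2 and 3 were. Over all genes tested, the share called higher in the same fits was 3.94%, 9.47% and 2.69% when Control 1, 2 and 3 were left out, and 1.69%, 15.8% and 2.85% when LCN2 1, 2 and 3 were. Of the genes named from the lists, Cth, Aldh1l2, Wars, Sqstm1, Pmaip1 and Maf were called whichever library was dropped. Dropping LCN2 1 ended the calls of Aldh18a1 and Ndrg1 (adjusted p from limma of 0.050 and 0.052). Dropping either Control 3 or LCN2 1 ended those of Shmt2, Slc6a9, Slc7a5, Lars and Atf6 (adjusted p up to 0.060), and dropping LCN2 1 or LCN2 3 those of Junb and Fosl1 (up to 0.059). Slc3a2 and Cebpg lost theirs without any 1 of Control 3, LCN2 1 and LCN2 3 (up to 0.064). Slc7a11, Eprs, Nars, Trib2, Hspa5, Xbp1, Calr and Pdia6 lost theirs without any 1 of those 3 libraries or Control 1. Pdia6 also lost its call without Control 2 (up to 0.12). The library order of the members, with Control 1 lowest, 3 in the middle and 2 highest and LCN2 2 lowest in its group, was found in 43 of the 102 genes (42.2%). Its reverse was found in 12 (11.8%). Over all genes tested, the order held in 12.5% and its reverse in 11.9%. The lists were chosen with earlier results known, so these shares are a description and not a test.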

How the data were processed

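RNA was measured by mRNA sequencing with a SMARTer kit in 6 libraries, per the labels' protocols. The authors deposited 1 table named as raw counts, but 0% of values above 0 were whole numbers (tolerance 1e-9), and values times the longest annotated transcript in kilobases (GENCODE annotation of GRCm38) summed to between 1032628 and 1095179 per library, so the deposited values were treated as FPKM. The build was GRCm38, per the submitters' processing notes. For the aligner, the quantifier and the strand setting: not given in the sources used here. The members and lists were chosen with earlier results of these data known.

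Libraries were scaled by a trimmed mean of log ratios without count weights (trimming 0.3 of ratios and 0.05 of means, factors 0.970 to 1.06), because no counts were given. The 10309 genes averaging 1 FPKM or more were fitted as log2(FPKM + 1) with limma 3.58.1 in R 4.3.3, with a variance trend and no replicate term, and called at a two-sided Benjamini-Hochberg adjusted p under 0.05. Fold changes on this scale understate changes of low genes. The fit was tested on simulated data. Printed FPKM are as deposited. In each list up to 4 called genes with the smallest adjusted p were named, or the 2 largest differences where none was called. Of 112 listed genes 109 were in the table, older symbols included, and 102 were tested. Promoter sequences are RefSeq's, GRCm38.p6. Alternatives were 4 scalings, a pseudocount of 0.1, other filters, the replicate number as a block and leaving out each library.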

Additional observations from a re-analysis of the deposited data

How the results depend on the processing

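With 3 libraries a group and depth unknown, the counts of calls changed with the library left out. Leaving out 1 library gave between 263 and 3155 calls over all genes in place of 2209, between 1 and 9 called members in place of 6, and between 6 and 68 called genes of the pathway lists in place of 53. No filter on low values gave 1464 calls over all genes, where more genes were tested. Values as deposited split the calls into 693 higher and 1680 lower, in place of 1192 higher and 1017 lower. The replicate block left 267 calls over all genes, 1 called member (Nupr1) and 7 called genes of the pathway lists. The replicate numbers were not taken as pairs, because the labels name no shared culture, day or batch. Deviations of same-numbered libraries from their group means correlated at -0.22, -0.26 and 0.0086 across genes. Deviations within a group of 3 cancel out, so these correlations depend on each other and cannot decide whether libraries were paired. The members' differences had the same sign under every alternative run. Among the genes most like the members, the difference of Esam turned to -0.0074 with values as deposited, and that of Rasgrp3 to -0.034 as deposited, -0.0082 scaled to column sums and below 0 when Control 1, LCN2 1 or LCN2 3 was left out (range over all 6 libraries left out in turn -0.076 to 0.093). The cause of these changes was not tested.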
